A study of Homo sapiens with 42 samples.

Results

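The comparison was made in HCC827, a lung adenocarcinoma cell line with an activating deletion in EGFR and extra copies of that gene, between cells given osimertinib and then AZD5153 (combo) and DMSO control cells. It set 3 combo against 3 control ATAC-seq libraries, 6 of the 42 libraries of the series, chosen by their labels, in a fit of all 9 HCC827 libraries with the replicate number as a block. Control cells grew for 21 days without drug and then for 3 days with DMSO. Cells called DTP (drug tolerant persister) were held in osimertinib at 500 nM over 24 days. Combo cells had 21 days of osimertinib at 500 nM, then 3 days of AZD5153 at 150 nM. Whether osimertinib stayed in the medium for those last 3 days is not given in the labels. All groups were cultures of the HCC827 line in biological triplicate, and no HCC827 group given AZD5153 alone was analysed here, so the parts of the 2 drugs in combo minus control cannot be told apart. The 3 DTP libraries served as the intermediate group, and the HCC2935, PC9 and H1975 lines as further EGFR-mutant lines under the same schedule.

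Osimertinib is an irreversible inhibitor of mutant EGFR, a receptor kinase whose signal runs through the RAS, RAF, MEK and ERK kinases to transcription factors of the AP-1 and ETS families. AZD5153 is an inhibitor of the BET family of proteins, readers of acetylated histones at enhancers and promoters. ATAC-seq counts the places where a transposase can cut, so a lower count means that less DNA at that region was open, or that it was open in fewer cells, which cannot be told apart in bulk cells. The labelled extraction protocol describes an H3K27ac chromatin immunoprecipitation, whereas the titles, the design text and the files name ATAC-seq, and the values were read as ATAC-seq.

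The counts covered 350366 regions of 502 bases, of which 82309 had enough counts to be tested. Control libraries had total counts of 2443177 to 3629743, DTP libraries 1892994 to 4242868 and combo libraries 1724680 to 3603589, and these totals limit what can be seen at low regions. The libraries numbered 3 stood apart in each group. Their share of counts in tested regions was 70.3% to 74.3%, against 55.6% to 65.3% in the others, and their share in promoter regions was 26.4% to 29.5%, against 15.7% to 21.1%. The lowest shares were those of combo 1. Levels below are CPM, the counts of a region scaled to the library's total over tested regions after TMM, always in the order of replicates 1, 2 and 3. Markers of the labelled cell type were present, and the summed CPM over epithelial marker regions was 1359 to 1875 for the control libraries, 876.5 to 1503 for DTP and 795.9 to 1415 for combo. The single blood cell marker region tested had 7.97 to 8.853 CPM in control, 2.516 to 4.3 for DTP and 4.674 to 7.043 for combo.

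The promoters whose values recur below are printed here because they show the AP-1 letters (TGANTCA, N being any base, which read the same on both strands) found at many promoters that lost accessibility, or the TEAD letters (GGAATG, either strand). The sequences run from 250 bases before to 50 bases after the RefSeq gene start in GRCh38.p14, in the direction of the gene, and capitals mark the AP-1 and TEAD letters. LAMA3 encodes a laminin chain of epithelial basement membrane, IL1RN the interleukin-1 receptor antagonist, HRH1 the histamine H1 receptor and LCN2 the iron-carrier protein lipocalin 2. Their regions were lower in combo than in control. ANKRD1, a cardiac ankyrin repeat protein and well-known YAP target, and SOX4, an HMG-box transcription factor, had regions that were higher. LCN2 and ANKRD1 each hold 1 AP-1 match and 2 TEAD matches, so match counts do not tell these promoters apart. ANKRD1 was the only 1 of 48 higher promoter windows with the AP-1 letters, beside 22 of 81 lower ones. The lower promoters were picked for holding the AP-1 letters and having fallen.
LAMA3 (chr18:23872770-23873069, plus strand): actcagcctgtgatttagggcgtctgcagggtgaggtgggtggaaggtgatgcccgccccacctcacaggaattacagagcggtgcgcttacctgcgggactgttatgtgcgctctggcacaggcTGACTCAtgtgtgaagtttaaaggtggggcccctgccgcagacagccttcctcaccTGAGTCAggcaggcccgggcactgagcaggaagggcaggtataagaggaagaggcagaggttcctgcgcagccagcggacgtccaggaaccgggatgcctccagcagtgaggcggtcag
IL1RN (chr2:113117721-113118020, plus strand): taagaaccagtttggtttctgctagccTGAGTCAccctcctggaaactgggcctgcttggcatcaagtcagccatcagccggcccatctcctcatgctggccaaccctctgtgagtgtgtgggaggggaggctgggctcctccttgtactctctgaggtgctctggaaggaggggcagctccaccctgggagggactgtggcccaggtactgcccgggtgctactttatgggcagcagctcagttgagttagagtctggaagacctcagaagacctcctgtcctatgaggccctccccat
HRH1 (chr3:11136988-11137287, plus strand): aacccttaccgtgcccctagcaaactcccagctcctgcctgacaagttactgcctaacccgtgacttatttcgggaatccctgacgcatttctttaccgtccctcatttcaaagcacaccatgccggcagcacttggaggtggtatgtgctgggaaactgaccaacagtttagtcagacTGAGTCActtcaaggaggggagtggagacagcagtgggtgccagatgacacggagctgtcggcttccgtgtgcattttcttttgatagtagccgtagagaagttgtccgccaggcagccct
LCN2 (chr9:128149203-128149502, plus strand): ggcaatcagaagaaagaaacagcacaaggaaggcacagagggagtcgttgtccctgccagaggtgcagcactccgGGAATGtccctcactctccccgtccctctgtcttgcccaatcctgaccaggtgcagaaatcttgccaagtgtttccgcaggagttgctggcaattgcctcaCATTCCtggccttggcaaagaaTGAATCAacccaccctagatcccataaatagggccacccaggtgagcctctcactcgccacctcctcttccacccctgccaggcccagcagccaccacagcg
ANKRD1 (chr10:90921038-90921337, minus strand): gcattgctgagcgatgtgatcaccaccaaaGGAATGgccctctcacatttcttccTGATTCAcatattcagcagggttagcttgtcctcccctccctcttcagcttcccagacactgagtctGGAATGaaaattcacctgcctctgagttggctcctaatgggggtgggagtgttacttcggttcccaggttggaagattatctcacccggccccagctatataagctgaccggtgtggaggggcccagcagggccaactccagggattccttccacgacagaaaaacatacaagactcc
SOX4 (chr6:21593501-21593800, plus strand): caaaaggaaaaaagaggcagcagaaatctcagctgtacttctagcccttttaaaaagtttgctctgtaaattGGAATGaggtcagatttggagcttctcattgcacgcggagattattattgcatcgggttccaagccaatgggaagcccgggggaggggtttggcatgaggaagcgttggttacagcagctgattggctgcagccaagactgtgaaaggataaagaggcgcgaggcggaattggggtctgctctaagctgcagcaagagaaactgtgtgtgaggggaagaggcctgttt

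The LAMA3 promoter held 2 AP-1 matches. Its region had 40.9, 26.7 and 63.7 CPM in control, 5.73, 8.39 and 19.9 in DTP and 6.98, 6.54 and 15.6 in combo, so control stood above both treated groups without overlap. The log2 fold change of combo over control was -2.20 ± 0.30 (SE, adjusted p = 0.000146, edgeR quasi-likelihood test with Benjamini-Hochberg adjustment, as for each adjusted p below).
The IL1RN promoter region had 19.9, 20.4 and 19.4 CPM in control, 13.6, 8.39 and 20.6 in DTP and 3.49, 6.54 and 2.97 in combo. Here DTP overlapped control, and combo lay below both. The fold change was -2.33 ± 0.41 against control (adjusted p = 0.00122), while DTP minus control was -0.43 and combo minus DTP -1.90. The region was not called in the test of combo minus DTP. HRH1 changed by -1.40 ± 0.26 and LCN2 by -1.65 ± 0.31.
ANKRD1 had 17.4, 17.2 and 24.5 CPM in control, 22.2, 21.8 and 50.5 in DTP and 32.8, 29.0 and 67.5 in combo, with every combo library above every control library. Its log2 fold change was 1.08 ± 0.26 (adjusted p = 0.0111). SOX4 rose by 1.08 ± 0.29 on the same scale (adjusted p = 0.024).

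Combo cells lost accessibility at more regions than they gained. Of the 82309 regions tested, 1402 were higher in combo than in control (1.7%) and 3880 were lower (4.71%). The called regions that rose had a median log2 fold change of 1.89, from 0.66 to 4.82, with a median SE of 0.46. Those that fell had a median of -1.61, from -7.46 to -0.58, with a median SE of 0.38. The combo library lay above the control library of the same number in all 3 pairs at 1358 of the higher regions, and below it in all 3 pairs at 3863 of the lower ones. The median log2 fold change over all tested regions was -0.03.

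The size of this set depended on the replicate block, as the plot of calls by setting shows. Without it 130 regions were called, 30 higher and 100 lower, and the biological coefficient of variation was 45.05% in place of 22.03%. The combo and control libraries alone, without DTP in the fit, gave 2200 calls (443 higher, 1757 lower). DESeq2 with the block called 1816 (622 higher, 1194 lower) and limma voom 9170 (3565 higher, 5605 lower). More regions were lower than higher in each of these settings, but leaving out control 2 gave 2856 higher and 2554 lower, and leaving out all libraries numbered 2 gave 1740 higher and 1347 lower. Without the libraries numbered 3 there were 3835 calls, 794 higher and 3041 lower. With DESeq2's size factors the median of all regions moved from -0.03 to 0.07, and 37.83% of the calls were higher, against 26.54%. With offsets that removed the median of each 10 Mb bin that share was 38.14%.

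**Figure D1:**
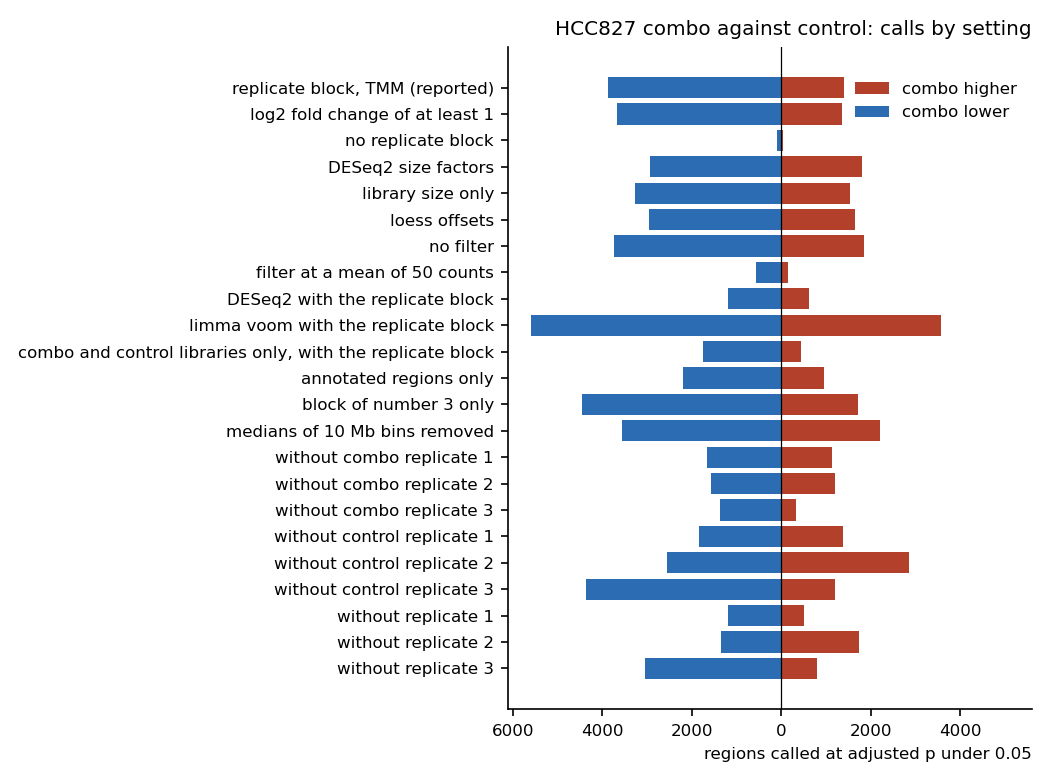
Number of HCC827 regions called in combo minus control (horizontal axis, lower to the left and higher to the right of 0) under each processing setting (vertical axis). Lower calls outnumber higher ones in the main setting (3880 against 1402), and the block separates 5282 calls from 130.

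Among annotated regions, those away from promoters were lost most often. In the annotated part of the table (30566 tested regions), 498 regions were higher (1.63%) and 2527 lower (8.27%). Of the 51743 tested regions outside it, 1.75% were higher and 2.61% lower. The class shares here and the 8.27% set beside gene lists below thus describe the annotated part only. Introns had 929 lower of 7065 (13.1%) and distal intergenic regions 670 of 5500 (12.2%). Promoter regions within 1 kb of a gene start had 511 lower of 13849 (3.69%) and 125 higher (0.903%), with a median log2 fold change of 0.02 against -0.26 in introns. The order of intron and promoter medians was the same under each alternative run. The gene lists below were not matched by class to the 8.27%, and the part of class in their shares was not tested.

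Of the 10 largest gains that passed the rule for naming, all lay in introns or between genes except DDX47, a promoter region. Each region carries the symbol of the gene to which the annotation assigned it, which does not show that it acts on that gene. The region near LINC01450, a long non-coding RNA gene (chr7:40918790-40919291), had 1.49, 1.27 and 0 CPM in control and 20.9, 16.8 and 18.2 in combo. DTP libraries were higher still, at 26.5, 24.3 and 47.0. The gain over control was 4.36 ± 0.54 (adjusted p = 6.12e-05).
An intron of CRIM1 (chr2:36482671-36483172), a transmembrane protein that binds bone morphogenetic proteins, had 0.498, 4.45 and 1.26 CPM in control, 20.8, 19.3 and 56.0 in DTP and 11.9, 11.2 and 48.9 in combo. Combo 3 and DTP 3 were well above their partners, and control lay below all of them. The gain was 3.58 ± 0.51 (adjusted p = 0.0002; 0.101 without the block).
SLC47A1, which encodes the drug and toxin exporter MATE1, was assigned an intronic-annotated region (chr17:19484927-19485428) at -9957 bases from its start. It had 2.99, 2.54 and 0.422 CPM in control, 21.5, 22.6 and 38.0 in DTP and 21.6, 24.3 and 23.7 in combo. The combo libraries were close to each other, and the gain was 3.58 ± 0.46 (adjusted p = 7.42e-05).

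HOPX, a homeodomain-only protein that marks alveolar type I cells in lung, had a region (chr4:56698244-56698745) with 2.49, 1.91 and 1.69 CPM in control, 14.3, 22.6 and 38.0 in DTP and 11.2, 12.2 and 36.0 in combo. Its gain was 3.23 ± 0.44 (adjusted p = 0.000134; 0.06 without the block).
An intron of LGR5 (chr12:71581120-71581621), the R-spondin receptor known from intestinal stem cells, had 0.996, 2.54 and 1.26 CPM in control, 25.8, 26.0 and 43.4 in DTP and 7.67, 11.2 and 17.4 in combo. Combo lay between control and DTP without overlap. The gain over control was 2.96 ± 0.46 (adjusted p = 0.000438), DTP minus control was 4.35, and combo minus DTP was -1.39 ± 0.31, which missed the threshold (adjusted p = 0.101).
The other regions named by the rule on the rising side were near TADA1 (3.399 ± 0.56), an adaptor of the SAGA acetyltransferase complex, LINC01101 (3.20 ± 0.48), NXT1 (3.00 ± 0.45), a cofactor of mRNA export, DDX47 (2.98 ± 0.51), an RNA helicase, and LRATD2 (2.94 ± 0.41). Without the block, LINC01450, SLC47A1 and NXT1 kept their calls among the 10.

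The largest losses left a few CPM in combo. An intronic region assigned to SRI, the calcium-binding protein sorcin (chr7:88254743-88255244), had 52.8, 45.8 and 65.8 CPM in control, 8.60, 7.55 and 11.6 in DTP and 2.79, 2.80 and 0.371 in combo. The 3 groups did not overlap and stood in that order. The loss was -5.08 ± 0.43 against control (adjusted p = 1.23e-06), and combo minus DTP was -2.55 ± 0.52 (adjusted p = 0.0708).
The promoter region of CTNND1 (chr11:57799062-57799563), the p120-catenin that steadies E-cadherin at cell contacts, had 37.4, 46.4 and 62.8 CPM in control, 5.73, 6.71 and 19.0 in DTP and 3.49, 0.935 and 6.67 in combo. The change against control was -3.67 ± 0.36, and the highest combo library overlapped DTP. A region near TGFBI (chr5:136016940-136017441), an extracellular matrix protein induced by TGF-beta, had 44.8, 35.6 and 48.9 CPM in control, 11.5, 13.4 and 19.0 in DTP and 3.49, 1.87 and 6.67 in combo. Every combo library lay below every DTP library, and the change against control was -3.33 ± 0.34 (adjusted p = 8.69e-06). Combo minus DTP was -1.755 ± 0.37, which missed the threshold (adjusted p = 0.0776).
A region annotated as an exon and assigned to CASC11, a long non-coding RNA gene beside MYC, had 109, 101.1 and 177 CPM in control, 19.4, 16.8 and 16.7 in DTP and 18.8, 5.61 and 11.1 in combo. Its loss was -3.45 ± 0.29 (adjusted p = 1.23e-06). GPC1, a cell surface heparan sulfate proteoglycan, had 35.4, 29.2 and 61.1 CPM in control, 5.02, 4.19 and 2.57 in DTP and 2.09, 2.80 and 2.97 in combo, a loss of -3.99 ± 0.40 (adjusted p = 8.69e-06). DTP and combo overlapped there.
The other named losses were near SERPINB1 (-3.52 ± 0.38), a protease inhibitor, MIR5700 (-3.41 ± 0.46), RNVU1-18 (-3.40 ± 0.41), a variant U1 small nuclear RNA gene, HHAT (-3.37 ± 0.37), the acyltransferase of hedgehog ligands, and OR1F1 (-3.36 ± 0.39). All 10 losses were called under each alternative in which the region was tested, the fit without the block included.

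**Figure D2:**
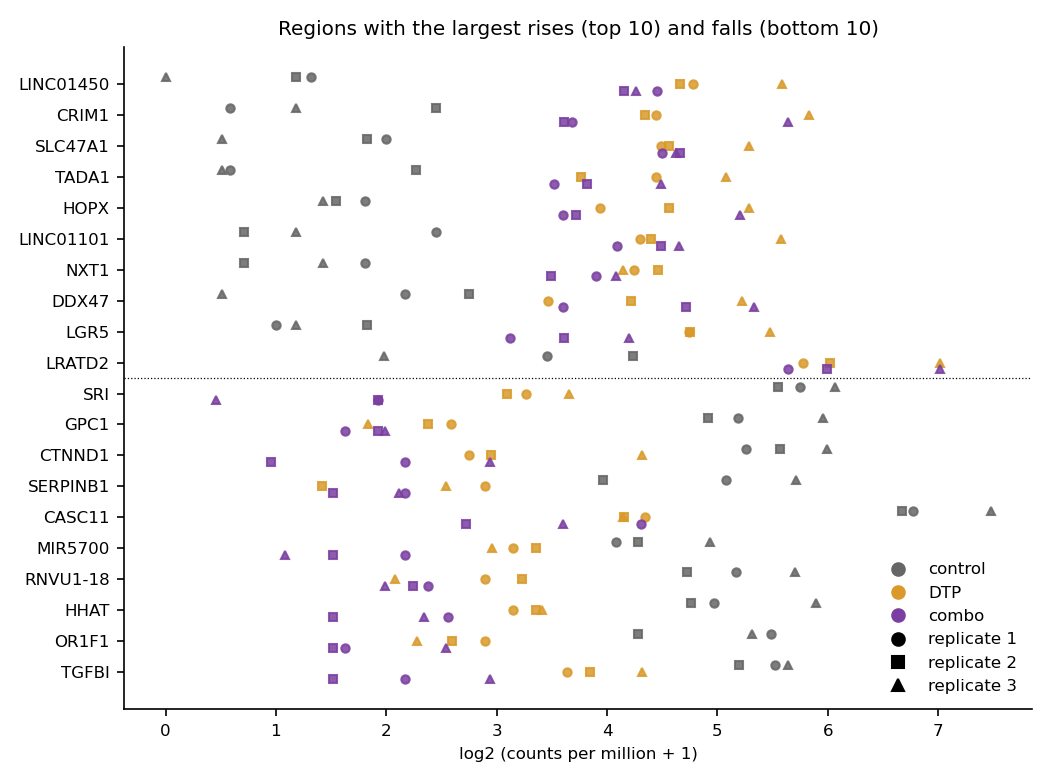
Log2 of CPM plus 1 (horizontal axis) in each HCC827 library for the 10 regions with the largest named gains and the 10 with the largest named losses (vertical axis), with colours for the group and shapes for the replicate number. Control and combo points do not overlap in any row.

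Genes tied to the output of the ERK pathway lost accessibility at many regions, mostly other than the promoter regions nearest their starts. The list holds feedback inhibitors (the DUSP, SPRY and SPRED genes) and also targets and effectors of the pathway (ETV1, ETV4, ETV5 and EGR1) and the receptors EPHA2 and EPHA4. Of 53 tested regions assigned to 14 of its genes, 14 were lower (26.4%, beside 8.27% of all annotated regions and 13.1% of introns). None of the 53 was higher (1 at an unadjusted p under 0.05, and none by DESeq2 or voom), and their median log2 fold change was -0.65. Regions of 1 gene are not independent. The lower ones lay at SPRED2 (4 regions), DUSP5, DUSP6, ETV1 and PHLDA1 (2 each), ETV5 and EGR1. Of the 13 promoter regions nearest a start only 1 was lower, with a median of -0.22 over the 13. The single tested region of SPRY4 went the other way, at 0.94 without a call.
SPRED2 encodes an inhibitor of RAF activation. Its strongest region, in an intron, had 40.9, 35.6 and 39.6 CPM in control, 20.1, 27.7 and 32.2 in DTP and 9.77, 5.61 and 15.6 in combo, with no overlap between the groups. The change was -1.86 ± 0.30 against control (adjusted p = 0.000593), with -0.55 for DTP minus control and -1.30 for combo minus DTP, and neither of the latter passed its test. ETV1, an ETS factor stabilised by ERK signaling, had a distal region at 21.9, 22.3 and 27.4 CPM in control, 18.6, 15.1 and 10.6 in DTP and 4.88, 0.935 and 8.53 in combo, a change of -2.13 ± 0.40 (adjusted p = 0.00206).
DUSP6, the ERK phosphatase, had an intronic-annotated region at -23184 bases from its start with 75.7, 71.2 and 104 CPM in control, 43.7, 38.6 and 72.0 in DTP and 16.0, 22.4 and 60.4 in combo (-1.44 ± 0.25, adjusted p = 0.00121). Its promoter did not pass the test (-0.56, adjusted p = 0.245). DUSP6 lies in the 10 Mb bin with the lowest median of 286, -0.68 over its 78 regions, and with bin medians removed the same region was at -0.80 (adjusted p = 0.0435).
The count of lower regions in the group fell to 0 without the block, 4 with DESeq2, 10 with bin medians removed and 3 without the libraries numbered 1, while its median stayed between -0.70 and -0.43 over all alternatives.

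The group of EGFR family genes and ligands had 387 tested regions, of which 359 carried the symbol EGFR, so its counts describe that locus. At EGFR, 3 of the 359 regions were higher and 5 lower, and over the whole group 0.775% were higher and 2.33% lower, below the 1.63% and 8.27% of all annotated regions. The EGFR promoter had 311, 358 and 336 CPM in control, 333, 267 and 356 in DTP and 301, 323 and 411 in combo. These groups overlapped, with a log2 fold change of 0.03 ± 0.17 (adjusted p = 0.958). A distal EGFR region at -58009 bases from the start had 201, 156 and 258 CPM in control, 133, 120 and 75.3 in DTP and 94.9, 56.1 and 40.8 in combo (-1.77 ± 0.25, adjusted p = 0.0002). TGFA, an EGFR ligand, had an intronic region at 43.8, 29.9 and 61.6 CPM in control, 22.9, 19.3 and 51.5 in DTP and 10.5, 11.2 and 23.4 in combo, a change of -1.62 ± 0.27 (adjusted p = 0.0007). Single regions of the ligand gene EREG, the EGFR inhibitor gene ERRFI1 and the ubiquitin ligase gene CBL also fell.

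Epithelial genes showed the same direction. Of 54 tested regions of epithelial markers, 12 were lower (22.2%, beside 8.27% of all annotated regions and 13.1% of introns). The median over the 54 was -0.62. None was higher, beside 1.63% of all annotated regions (1 at an unadjusted p under 0.05, and none by DESeq2 or voom). The lower ones lay at the keratin genes KRT8 (3 regions), KRT7 (2) and KRT19, the adhesion genes CDH1 (2) and EPCAM, the tight junction gene CLDN4, and the epithelial regulators ELF3 and ESRP1. A KRT8 region 1007 bases after the start had 30.4, 29.9 and 41.3 CPM in control, 8.60, 12.6 and 22.5 in DTP and 6.28, 3.74 and 12.2 in combo (-2.18 ± 0.32, adjusted p = 0.000268). An intronic-annotated EPCAM region had 28.4, 13.4 and 24.0 CPM in control, 8.60, 8.39 and 5.15 in DTP and 5.58, 1.87 and 2.22 in combo (-2.81 ± 0.41, adjusted p = 0.000211). In the other lines the KRT8 region rose in HCC2935 (2.18) and PC9 (1.17) and was at 0.07 in H1975. Its difference between HCC827 and HCC2935 passed the test (adjusted p = 4.11e-08). The EPCAM region fell in HCC2935 (-2.98), PC9 (-4.23) and H1975 (-3.84). Over the promoter region nearest each marker's start the median log2 fold change was -0.30. Without the block the count of lower regions was 0, with DESeq2 6, and without the libraries numbered 2 it was 3.
The epithelial-mesenchymal list shares CDH1, EPCAM and ESRP1 with the markers. Of its 69 regions 12 were lower (17.4%, beside 8.27% of all annotated regions and 13.1% of introns). Another 2 were higher (2.9%, beside 1.63% of all annotated regions). The lower ones included TGFBI and the integrin gene ITGB6 (3 each) and FN1, which encodes fibronectin, a mesenchymal matrix protein. The higher ones were an intronic-annotated region assigned to GRHL2, an epithelial transcription factor (2.36 ± 0.44), and the promoter of SPARC, a matrix protein made by mesenchymal cells (1.26 ± 0.34).

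TGF-beta and BMP genes had 9 of 64 regions lower (14.1%, beside 8.27% of all annotated regions and near the 13.1% of introns). Of the 9, 4 were at SMAD3, a transducer of the TGF-beta signal. None of the 64 was higher (1 at an unadjusted p under 0.05, none by DESeq2 and 1 by voom). A SMAD3 region at -456 bases from an annotated start had 45.8, 22.3 and 48.9 CPM in control, 10.0, 5.03 and 15.8 in DTP and 11.2, 5.61 and 26.3 in combo, so combo 3 overlapped control 2 (-1.49 ± 0.29, adjusted p = 0.00307), while the SMAD3 promoter region chosen for the list, at another start, was at 0.04 (adjusted p = 0.961). The median of the list was 0.01, and its count fell to 0 without the block.
YAP and TEAD targets had 7 of 143 regions higher (4.90%, beside 1.63% of all annotated regions) and 12 lower (8.39%, near the 8.27% of all annotated regions). The higher ones lay at ANKRD1, AJUBA, CRIM1, ASAP1 (2) and CCN1 (2), a secreted matricellular protein. The stronger CCN1 region had 4.98, 3.82 and 2.11 CPM in control, 20.8, 15.9 and 20.3 in DTP and 14.0, 15.0 and 14.8 in combo (2.03 ± 0.38, adjusted p = 0.00227). The lower ones included 4 regions of PTPN14, itself a YAP inhibitor, 3 of ASAP1 and 1 of CRIM1. Neither the CCN1 promoter (0.27, adjusted p = 0.637) nor that of CCN2 (0.47, adjusted p = 0.411) passed the test.

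Among BET proteins and genes known to respond to their inhibition, 5 of 32 regions were lower (15.6%, beside 8.27% of all annotated regions and 13.1% of introns). They lay at CDK6 (2), RUNX1, H2BC21 and ZCCHC24, and the median of the list was 0.01. The H2BC21 region, of a histone H2B gene, was its promoter (-1.28 ± 0.37, adjusted p = 0.0384). The promoters of MYC and HEXIM1 did not pass the test. MYC had 39.9, 38.2 and 52.7 CPM in control, 37.3, 39.4 and 27.0 in DTP and 30.0, 39.3 and 34.5 in combo (-0.35 ± 0.24, adjusted p = 0.501). HEXIM1 had 34.9, 43.2 and 50.2 CPM in control, 47.3, 50.3 and 42.1 in DTP and 34.9, 60.8 and 56.0 in combo (0.22 ± 0.23, adjusted p = 0.692). The groups overlapped at both. CCND1, the cyclin D1 gene, was at 0.11 (adjusted p = 0.904), and the SPRY4 region at 0.94 (adjusted p = 0.175).

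The other groups held a few called regions each, and their shares of lower regions are read beside the 8.27% of all annotated regions (13.1% in introns). In the interferon and antigen presentation list 3 of 20 regions were lower (15%), 2 of them at CD274, which encodes PD-L1. The region at -3699 bases from its start had 16.9, 17.2 and 27.4 CPM in control, 4.30, 3.36 and 6.11 in DTP and 4.19, 1.87 and 1.85 in combo (-3.04 ± 0.43, adjusted p = 0.000174). The retinoid list had 3 of 52 lower (5.77%, below that share), among them a distal region of the aldehyde dehydrogenase gene ALDH1A1 (48.3, 28.0 and 38.4 CPM in control against 6.28, 4.67 and 9.64 in combo, -2.38 ± 0.32).
Bypass receptor kinases had 4 of 57 lower (7.02%, below that share), among them the promoter of FGFR4 (34.4, 44.5 and 57.8 CPM in control, 13.3, 7.48 and 22.6 in combo, -1.61 ± 0.28) and a MET intron (-1.20 ± 0.33). Of the AP-1 factor genes 2 of 38 regions were lower (5.26%, also below it), 1 at JUN (-1.53 ± 0.37) and 1 at -881 bases from the JUNB start (-1.61 ± 0.35). The JUN region had 12.45, 13.4 and 53.5 CPM in control and 5.58, 8.41 and 11.9 in combo, so control 3 stood far above the other control libraries. The promoter regions nearest the starts of JUN (0.07, adjusted p = 0.922) and JUNB (0.14, adjusted p = 0.873) did not pass the test. Lung alveolar genes had 4 of 25 lower (16%), at CEBPA, LPCAT1, SFTA3 and CAV1, and 1 higher, at HOPX.
Cell cycle genes had 2 of 41 higher (4.88%, beside 1.63% of all annotated regions), which lie side by side at the promoter of CDK4. The 1 lower was at CDKN2A, which encodes the CDK4 inhibitor p16 (-1.30 ± 0.38, adjusted p = 0.0414). CDKN2A lies in a 10 Mb bin with a median of -0.38. The CDK4 region with more counts had 335, 328 and 434 CPM in control and 483, 631 and 621 in combo, without overlap (0.66 ± 0.17, adjusted p = 0.0174). In the WNT list 2 of 22 regions were higher (9.09%, beside 1.63% of all annotated regions). They were an LGR5 intron and an intronic-annotated region at -35135 bases from the RNF43 start. The BCL2 family had 2 of 24 higher (8.33%), a 3' UTR region of BMF and an intronic-annotated region at -3792 bases from the BOK start. Both are pro-apoptotic genes. An intron of BCL2L1, which encodes BCL-XL, was lower (-1.17 ± 0.35, adjusted p = 0.0488). The promoters of RNF43 (-0.30, adjusted p = 0.649), BMF (0.27, adjusted p = 0.693) and BCL2L1 (0.33, adjusted p = 0.592) did not pass the test. HOX and SOX factors had 1 higher of 18, the SOX4 promoter. The gut and liver list (11 regions), the fibroblast markers (5 regions) and the blood cell markers (1 region) had no call by edgeR, with 2, 1 and 0 regions at an unadjusted p under 0.05, no call by DESeq2, and 1 by voom in the gut and liver list. The endothelial markers had 1 higher and 2 lower of 14. Summed CPM in endothelial and fibroblast marker regions was 221.7 to 251.7 and 57.24 to 89.38 in control, and 161.1 to 290.1 and 41.85 to 103.9 over the DTP and combo libraries. Their part in these results was not tested.

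Regions just behind the start of small nuclear RNA genes lost accessibility as a group. Most of these genes make the U1, U4, U5, U11 and U12 RNAs of the spliceosome. They are transcribed by RNA polymerase II, unlike the U6 genes, and the polymerase runs past the end of these short genes before it stops. The group was picked after its values were seen, starting from RNVU1-18, so its counts are a description. Of 30 promoter regions of 17 polymerase II small nuclear RNA genes, 16 were lower (53.3%, beside 3.69% of all promoter regions), with a median log2 fold change of -1.16.
The position within the promoter separated them. Of 12 regions that began between 100 and 1000 bases after the start (8 genes), 11 were lower, with a median of -2.39 and a range from -3.40 to -0.94. Of 7 regions that ended before the start, none was lower by edgeR or DESeq2 and 1 by voom (1 at an unadjusted p under 0.05), and their median was 0.24. Of 8 regions over the start 3 were lower. Among protein-coding genes, 70 of 1306 regions at 100 to 1000 bases after the start were lower (5.36%), with a median of -0.10.
Summed over the 12 regions, control had 413, 279 and 627 CPM, DTP 146, 182 and 145, and combo 92.8, 120 and 136. Summed over the 7 regions before the start, control had 110, 85.2 and 156, DTP 104, 95.6 and 122, and combo 81.6, 102 and 127. The groups did not overlap behind the start and did overlap before it.

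RNU11, the U11 gene, shows the pattern within 1 locus. Its region before the start was at 0.42 ± 0.36, while the region 225 bases after the start (chr1:28648825-28649326) had 40.4, 24.8 and 65.3 CPM in control, 12.2, 9.23 and 10.6 in DTP and 6.28, 6.54 and 10.8 in combo (-2.43 ± 0.31, adjusted p = 8.36e-05). RNU5E-1, a U5 gene, was at 0.30 ± 0.38 before the start. Its region 208 bases after the start (chr1:11908360-11908861) had 48.3, 38.2 and 82.6 CPM in control, 11.5, 18.5 and 13.8 in DTP and 8.37, 9.35 and 11.5 in combo (-2.52 ± 0.30, adjusted p = 5.25e-05). RNU5B-1 at 589 bases was at -2.95 ± 0.46 and RNU4ATAC at 395 bases at -2.26 ± 0.43, whereas the RNU4ATAC start was at -0.48.
Genes of polymerase III, such as the U6 genes, had no call among 17 regions by edgeR, DESeq2 or voom (4 at an unadjusted p under 0.05), with a median of -0.16, and only 3 of these regions lay in the 100 to 1000 base window, with a median of -0.46. In DTP minus control, which shares the control libraries, the 12 regions of the polymerase II genes had a median of -1.997, with -0.39 for combo minus DTP. Many of these genes have near-identical copies, and 1 symbol was given to regions at several places on chromosome 1, so counts could be split between copies.
Of the 12 regions, 2 were called without the block, 11 with DESeq2 and 8 without combo 3 or without the libraries numbered 1. In HCC2935 10 of 10 matched regions were lower (median -1.75), in H1975 10 of 10 (-1.03), and in PC9 2 of 10 with 1 higher (0.01).

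**Figure D3:**
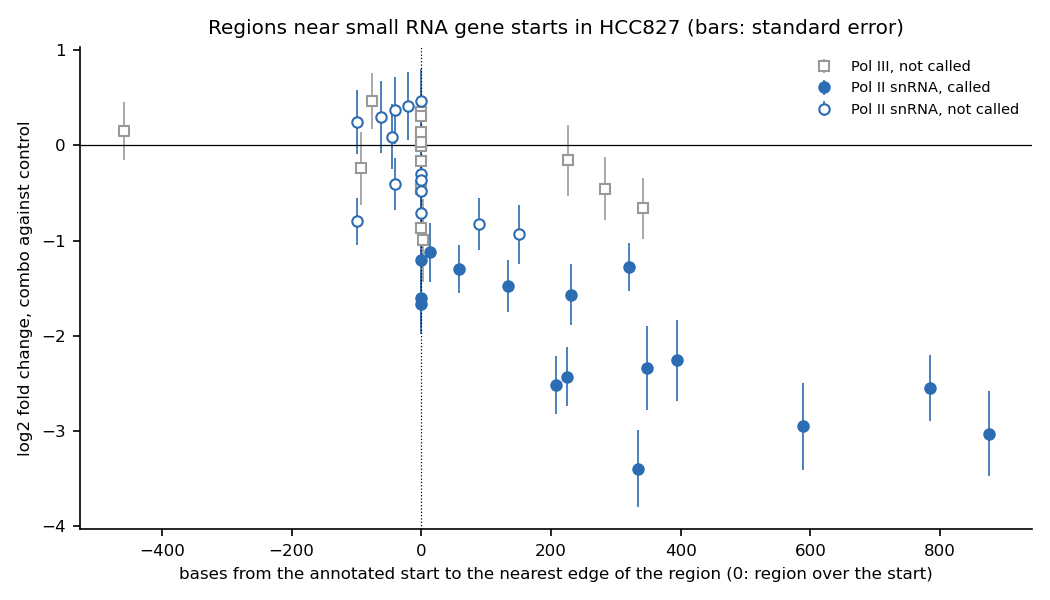
Log2 fold change of combo over control (vertical axis) against the bases from the gene start to the nearest edge of the region (horizontal axis) for promoter regions of polymerase II small nuclear RNA genes (circles, filled where called) and of polymerase III genes (squares), with standard errors as bars. The regions 100 to 1000 bases after the start lie between -3.40 and -0.94 for the polymerase II genes, while those before the start have a median of 0.24.

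Promoters with an AP-1 match fell more often than those without. In 5747 promoter windows overlapped by a tested region over at least 150 bases, TGANTCA was present in 22 of 81 lower windows (27.2%), 1 of 48 higher windows (2.08%) and 231 of 5618 windows with no call (4.11%), and in 7.76% of all 27305 RefSeq windows of the same length. Of the 254 windows with the motif 8.66% were lower, and of the 5493 without it 1.07%. The median log2 fold changes were -0.05 and 0.10, so most promoters with the motif differed little from the rest. The motif was picked after the values were seen, a match is a run of letters and not a bound site, and the LAMA3, IL1RN, HRH1 and LCN2 promoters printed above are 4 of the 22.
The other letters searched on both strands were less unequal. GGAATG (TEAD) was in 20.8% of higher, 12.3% of lower and 9.74% of windows with no call, and in 14% of all windows. CCGGAA (ETS) was in 22.9%, 25.9% and 32.9%, and CCAAT in 54.2%, 25.9% and 43.4%. CACGTG (E-box) was in 16.7%, 4.94% and 11%, and the octamer ATTTGCAT in 2.08%, 2.47% and 1.42%. The 48 higher windows make these shares coarse.
Of the windows with the AP-1 letters, 10 were lower with DESeq2, 35 with voom, 18 with bin medians removed and 0 without the block.

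**Figure D4:**
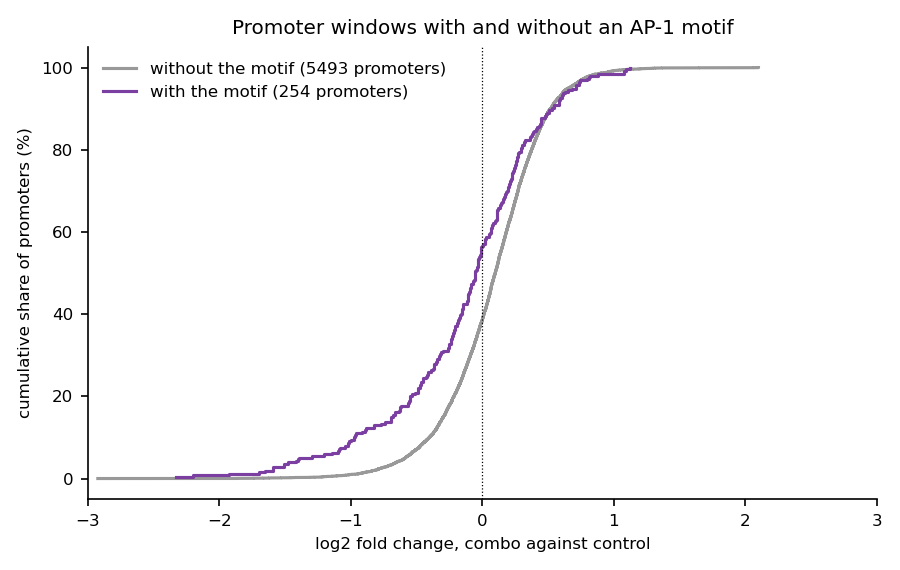
Cumulative share of promoter windows in percent (vertical axis) by log2 fold change of combo over control (horizontal axis), for 254 windows with and 5493 without TGANTCA. The curve with the motif lies to the left, with a median of -0.05 against 0.10.

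Set beside DTP minus control, which shares the control libraries, the gains and the losses behaved differently in size. At the 1402 higher regions the median DTP minus control was 1.85, beside 1.89 for combo minus control. At the 3880 lower regions it was -0.92, beside -1.61. DTP minus control by itself called 1776 regions higher (2.16%) and 1415 lower (1.72%). Because the regions were chosen on combo minus control, these medians are descriptions.
The direct test of combo minus DTP called 25 regions, all lower (0.0304%), with log2 fold changes from -3.35 to -1.14, and 3095 higher and 4458 lower regions at an unadjusted p under 0.05. Higher calls numbered 0 with edgeR, 0 with DESeq2 (10 calls in all) and 19 with voom (290 in all). No region was called without the block, without combo 1 or without combo 2, while leaving out control 3 gave 969, of which 167 were higher.

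Of the 25, 21 were also called lower against control, 21 had no call in DTP minus control, 3 were higher there and 1 lower. An intronic region assigned to USP25, a deubiquitinase (chr21:15754680-15755181), had 65.8, 65.5 and 72.1 CPM in control, 25.1, 27.7 and 54.4 in DTP and 6.98, 7.48 and 10.8 in combo. The groups stepped down without overlap, and combo minus DTP was -2.07 ± 0.29 (adjusted p = 0.0218). A region annotated as an exon and assigned to ONECUT3, a homeobox factor (chr19:1747569-1748070), had 43.3, 35.0 and 48.9 CPM in control, 23.6, 31.9 and 20.6 in DTP and 6.98, 4.67 and 4.45 in combo (-2.22 ± 0.35, adjusted p = 0.0218).
The promoter of GRAMD1B, a sterol transporter, had 27.9, 27.4 and 31.2 CPM in control, 30.8, 29.4 and 24.8 in DTP and 10.5, 6.54 and 7.04 in combo. There DTP overlapped control and combo alone was low, with combo minus DTP at -1.81 (adjusted p = 0.0323). BMP6, a bone morphogenetic protein, had an intronic region at 1.99, 1.91 and 1.26 CPM in control, 14.3, 16.8 and 18.01 in DTP and 2.79, 3.74 and 3.34 in combo. It was high in DTP and near control in combo, with -2.31 ± 0.40 for combo minus DTP (adjusted p = 0.0413) and 0.92 for combo minus control, which was not called. These regions were named after their values were seen.

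The same schedule moved many of these regions the same way in the other lines, whose libraries are separate samples. Of the regions lower in HCC827, 3061 matched a tested HCC2935 region, and 51.2% of those were lower there too (17.9% of all matched regions), with a median of -0.56. In PC9 it was 68.8% of 3028 (23.3% of all) and in H1975 77.9% of 3535 (28.1% of all). Of the higher regions, 58% of 1034 were higher in HCC2935 (25.1% of all), 56.3% of 766 in PC9 (27.1%) and 72.6% of 1144 in H1975 (31.9%). Of the regions matched in all lines, 893 of 2555 lower ones (35%) and 210 of 632 higher ones (33.2%) were called in the same direction in all 4 lines. The lines differ in their number of libraries and in the spread between replicates, and only HCC827 was fitted with the replicate block. These shares are thus read against the background of the same line and not between lines.
The direct test of HCC827 against HCC2935 on 107744 matched regions called 11978, of which 6928 were further up in HCC827 (6.43%) and 5050 further down (4.69%). Among regions called lower in HCC827, 1067 of 3223 were further down than in HCC2935 and 34 the other way. Among higher ones 413 of 1091 were further up and 12 the other way. The regions were called on the HCC827 values, and that choice favours this direction.
Among the promoters printed above, IL1RN went opposite ways, with -2.33 in HCC827 and 1.80 in HCC2935 (adjusted p of the difference 2.75e-07), -1.02 in PC9 and -1.43 in H1975. LCN2 also differed, with -1.65 in HCC827 and 0.49 in HCC2935 (adjusted p of the difference 7.02e-05), and was at -0.28 in PC9 and 1.24 in H1975. LAMA3 differed in size, with -2.20 in HCC827 and -0.23 in HCC2935 (adjusted p of the difference 0.000171). At the HRH1 (-0.46 in HCC2935), ANKRD1 (0.80) and SOX4 (0.80) promoters the difference did not pass its test.

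**Figure D5:**
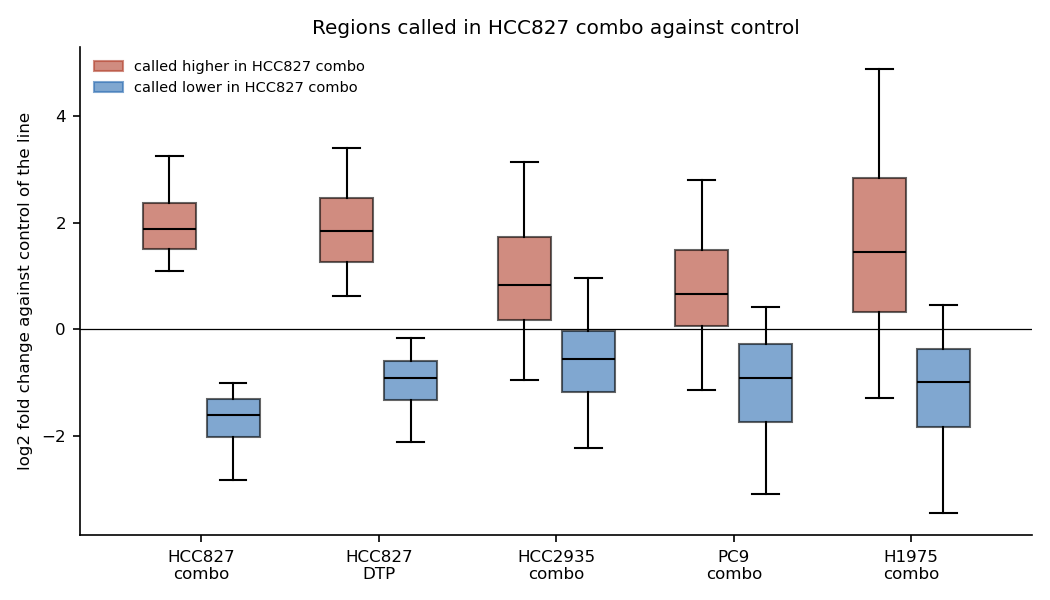
Log2 fold change against the control of the same line (vertical axis) at regions called higher or lower in HCC827 combo, for HCC827 combo and DTP and for combo in the other lines (horizontal axis), with boxes from percentile 25 to 75, whiskers from 5 to 95 and a line at the median. In HCC2935, PC9 and H1975 the medians are -0.56, -0.91 and -0.98 at lower regions and 0.83, 0.67 and 1.45 at higher ones.

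Peaks called per library did not separate the groups. Combo had 38683, 96325 and 133445 peaks, control 61803, 44119 and 165773, and DTP 128164, 29402 and 157598. The mean was 89484 ± 47750 (SD, n = 3) in combo and 90565 ± 65729 (n = 3) in control, a difference of -1081 (exact two-sided permutation test, p = 1, where 3 against 3 cannot go below 0.1). The lists were cut at different q values, with a lowest -log10 q of 1.342 to 2.561 among the libraries. With peaks at a -log10 q of at least 5 the means were 32316 ± 33994 in combo and 38213 ± 11914 in control, a difference of -5897 (exact two-sided permutation test, p = 0.8). DTP alone spanned 29402 to 157598, so the spread within a group was wider than the difference between groups.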

How the data were processed

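ATAC-seq libraries of HCC827 cells were analysed with 3 libraries each of control, DTP and combo. Per the labels' processing notes, the authors aligned reads to hg38 with BWA 0.7.17, used SAMtools 1.9 and deepTools 3.4, called peaks per library with MACS2 2.2.6 and counted reads with featureCounts 2.0.0. The deposited counts per region are whole numbers with no normalization. The deposited annotated table holds 30709 of the 350366 regions with the same counts and a ChIPseeker 1.29.1 annotation. The deposited peak lists give a fold enrichment ratio, a signal value and -log10 p and q values, of which the number of peaks and -log10 q were used. The authors' statistics were not used.

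Counts were fitted in edgeR 4.0.16 (R 4.3.3) with TMM factors, filterByExpr and the quasi-likelihood F test on all 9 HCC827 libraries, with group and replicate number as terms. P-values were adjusted by Benjamini-Hochberg across the 82309 tested regions, with calls under 0.05, and the SE is the log2 fold change divided by the root of F. Deviations from the group means correlated at 0.26 to 0.83 in all 9 same-number pairs, though numbers 1 and 2 also correlated with each other (0.22 to 0.52). Number 3 was set apart from both (-0.68 to -0.35). Of the 9 libraries, 6 correlated best with a library of their own number, so numbers 1 and 2 were not clearly told apart. A block of number 3 only gave 6171 calls in combo minus control. Pairs of replicates differed by 1.21 to 9.56 times the counting variance, and pairs of numbers 1 and 2 by 1.21 to 2.08 times. These ratios do not show that the cultures were independent. Each library was counted as its own sample because the groups were in biological triplicate. On simulated counts of 73661 regions, 14.61% of regions with a log2 fold of 1 and 70% with 2 were recovered at combo minus control (89 and 90 regions). Far fewer regions were changed there than the 5282 called in the data, so these shares may not hold for the data. DESeq2 1.42.0 and limma 3.58.1 voom, other scalings, filters and left-out libraries were alternatives, and 2 alternatives (a block of number 3 only, and offsets by 10 Mb bin) were added after the data were seen. Other lines were fitted apart, without a replicate block, with regions matched at a reciprocal overlap of at least 50%. The joint fit of HCC827 and HCC2935 had the replicate number within line as a block.

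Named regions are the 10 largest called rises and falls in the annotated table with the same direction in all 3 pairs and a mean log2 CPM above the median of 3.06, 1 per symbol. Named genes are up to 4 per list with a called region, plus EGFR, MYC, HEXIM1, CCND1, DUSP6, SPRY4, CCN1, CCN2 and LGR5, and further called genes of the lists were named after their values were seen. Members and lists were chosen with earlier results of these data known. Promoter sequences and gene types came from RefSeq (GRCh38.p14), which matched 13844 of 13849 promoter regions.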

Additional observations from a re-analysis of the deposited data

Results flagged for a closer look

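Combo minus control differed between HCC827 and HCC2935 at 11978 of 107744 matched regions by the test of the difference itself (edgeR interaction term), and 8 of the named regions were among them. On the log2 scale of HCC827 minus HCC2935, the gains were larger in HCC827 at CRIM1 (3.55 ± 0.48, adjusted p = 2.86e-06), HOPX (2.88 ± 0.45, adjusted p = 2.4e-05) and TADA1 (2.71 ± 0.66, adjusted p = 0.00496). The losses were deeper in HCC827 at SRI (-3.14 ± 0.59, adjusted p = 0.000338), CTNND1 (-2.34 ± 0.35, adjusted p = 1.64e-05), SERPINB1 (-2.11 ± 0.43, adjusted p = 0.000731), TGFBI (-2.06 ± 0.45, adjusted p = 0.00182) and MIR5700 (-1.97 ± 0.58, adjusted p = 0.0214). These regions were named for large HCC827 values, which favours such differences. Without the replicate block 5312 regions were called.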

How the results depend on the processing

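For combo minus control, 5282 regions were called, against 130 without the replicate block, 709 with a filter at a mean of 50 counts, 1816 with DESeq2, 9170 with voom, 2200 with the combo and control libraries only and 3150 with annotated regions only, and 1686 to 5567 when 1 library or number was left out. Leaving out combo 3 gave 1692 and number 1 gave 1686. DTP minus control (3191) gave 18 without the replicate block, 142 with the filter at 50, 1075 with DESeq2, 5656 with voom, 1625 with annotated regions, and 863 to 4827 with libraries left out. Combo minus DTP (25) gave 0 without the replicate block, with the filter at 50 or with annotated regions, 10 with DESeq2 or its size factors, 14 with loess offsets, 290 with voom, 132 with no filter, 76 with a block of number 3, 59 with bin medians removed, and 0 to 969 with libraries left out. The 969 came without control 3. The difference between the lines (11978) gave 5312 without the replicate block. The peak difference (-1081) ran from -24304 to 36523 with libraries left out, turning positive at 24320 without combo 1 and 36523 without control 3. The causes were not tested. No named region with a call changed direction under any alternative run, while the uncalled promoters of CCND1, DUSP6 and EGFR changed sign in some. The block carries most calls, and the totals of DTP 2 (1892994) and combo 2 (1724680) limit low regions. Log2 folds near 1 were mostly missed in the simulation, where few regions were changed.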
